A study of Mus musculus with 4 samples.

Results

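Chaperones and cochaperones were described in the seminal vesicles of 4 wild-type mice. The members were all probe sets whose platform annotation named a single gene of the Hsp70, Hsp90, small heat shock protein, J-domain, chaperonin, prefoldin, BAG, FK506-binding protein or cyclophilin families, or a named cochaperone or heat shock factor, with Hspa5, Fkbp4 and Fkbp5 left out. This gave 108 of 12422 probe sets and 78 of 8251 genes. The choice rested on gene symbols and used no measured value. Although the group is known for its cytosolic members, the symbols also took in 11 genes of the endoplasmic reticulum (ER) and 7 of mitochondria, whose counts are also given apart. Another 5 probe sets named a gene of these families together with a second gene and were left out.

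The arrays were Affymetrix Mu74AV2 GeneChips, 1 for each of 4 C57Bl/6J mice of genotype Nkx3.1 +/+, with the gland harvested at 15 months. The seminal vesicle is a secretory gland of the male tract and supplies much of the seminal fluid and the proteins of the copulatory plug. All arrays formed 1 group, so no genotype, age or tissue was compared, and the questions were which chaperone genes gave signal in this gland and which differed between its mice. Each array has an animal number of its own in the labels, which name no litter, cage or hybridisation batch.

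Molecular chaperones bind unfolded segments of other proteins and help them to fold, to assemble or to be degraded. Hsp70 proteins bind and release clients in a cycle of ATP hydrolysis that J-domain proteins start and that BAG proteins and Hsp110 help to close by exchanging the nucleotide. Hsp90 finishes the folding of kinases and steroid receptors, the androgen receptor among them, and takes clients from Hsp70 through Stip1, while prefoldin hands new actin and tubulin chains to the ring-shaped chaperonin CCT. Heat shock factor 1 raises many of these genes when unfolded protein accumulates.

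Expression is given in log2 units as RMA left it, with a precision limited by the 4 arrays. A probe set was counted as above the background range when on every array it exceeded a limit set there, the 90th percentile of the 124 probe sets that read 96 genes restricted to other organs, which ran from 6.05 to 6.23. Values of different probe sets were compared with this limit and not with each other. The labelled tissue bore its markers, with the seminal vesicle secretory genes Svs2 at 12.53 ± 0.10, Svs4 at 12.99 ± 0.03 and Svs5 at 13.09 ± 0.06 (SD, n = 4 mice). Of 7 measured genes of this secretion 6 were above the range, and Spink1, with a mean of 3.69, was not. Array medians lay between 4.95 and 4.98, and pairs of arrays had a Pearson's r of 0.992 to 0.994 over probe sets, which are not independent. In whole tissue, fewer cells of a type and less RNA per cell cannot be told apart.

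Most families had some genes above the range and some below it. In all, 33 of the 78 chaperone genes, or 42.3%, were above the background range on all 4 arrays, against 28.4% of all genes on the array. By probe set these were 41 of 108, or 38.0%, against 23.3%. No test was made of this difference. The 33 genes took in 8 of the 11 ER genes, 2 of the 7 mitochondrial genes and 23 of the 60 others. A further 8 probe sets passed the limit on 1 to 3 arrays, and 59 passed it on none. A value under the limit does not show that a gene was silent. The choice of limit moved the counts: with a limit at the 75th percentile 57 chaperone genes (73.1%) passed, against 55.6% of all genes, and with one at the 95th percentile 21 (26.9%) did, against 17.4%.

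**Figure D1:**
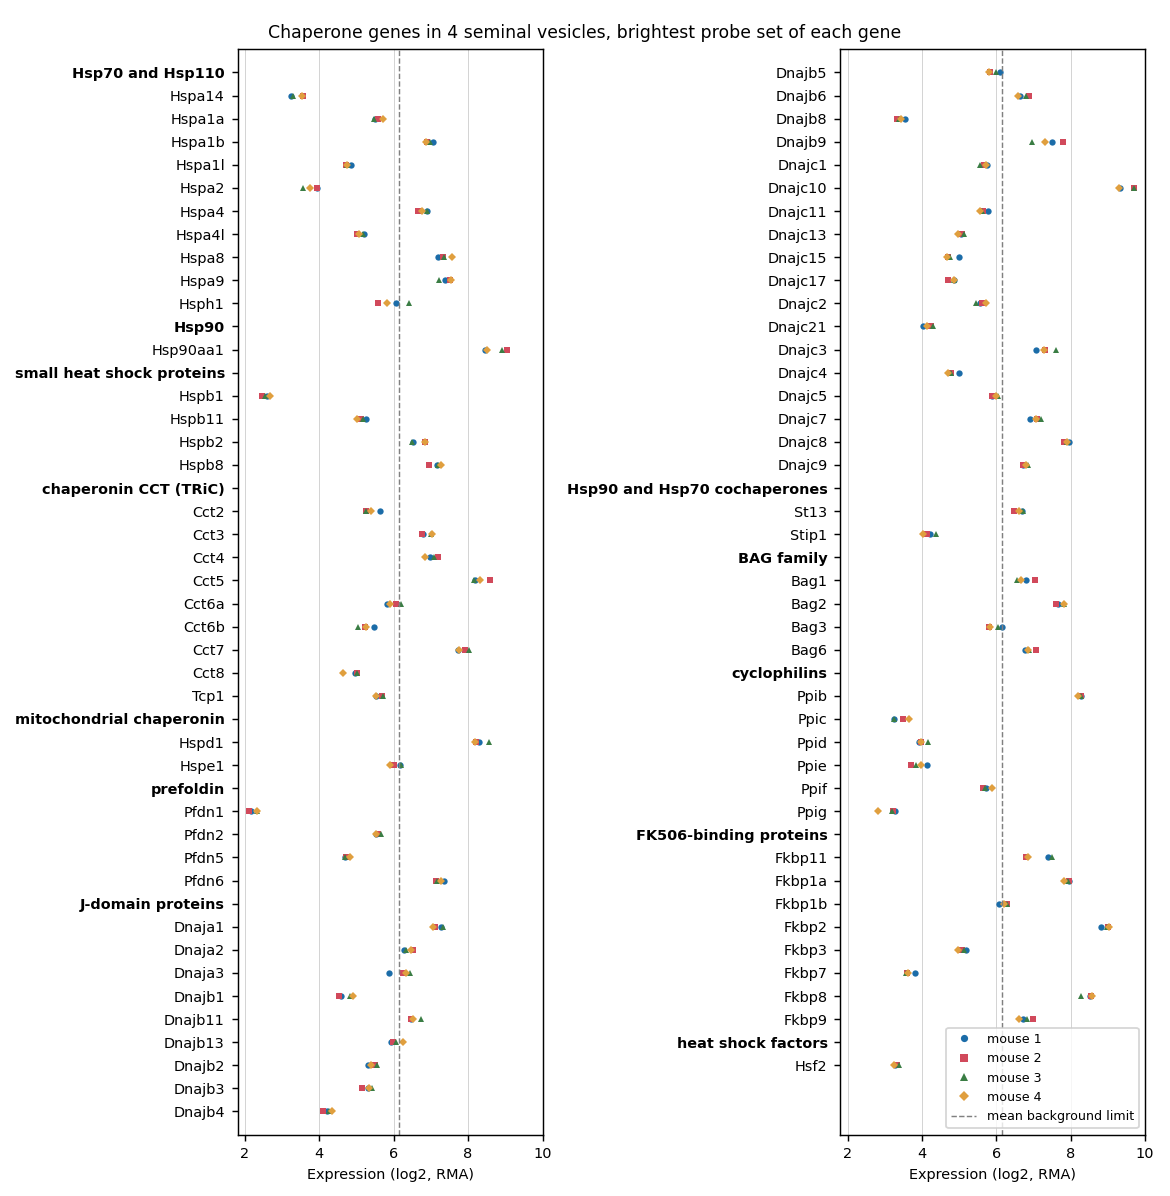
Expression of the 78 chaperone genes, by family, in log2 units on the x axis, with 1 symbol for each of the 4 mice and the brightest probe set of each gene. The dashed line is the mean background limit of 6.14, and 33 of the 78 genes have at least 1 probe set beyond the limit of every array.

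No chaperone probe set was called variable over the mice. A probe set's variance over the 4 mice was set against the prior variance of limma's model, with Benjamini-Hochberg adjustment over all 12422 probe sets, and 0 of 108 chaperone probe sets passed an adjusted p of 0.05, against 0.282% of all probe sets. At an unadjusted p under 0.05 stood 5, or 4.63%, against 5.44% of all probe sets. The lowest adjusted p of a chaperone was 0.493 (limma). The spread was small in absolute terms, with a median SD of 0.12 over the chaperone probe sets and 0.11 over all, and the widest range of a chaperone probe set was 0.85. With 4 arrays, a chaperone probe set would have needed an SD of about 0.66 to be called (the median over the 108, with 0.48 to 0.68 at their signals). The largest seen was 0.36, so a smaller spread could not be called. Each mouse had 1 array, so differences between mice and between arrays cannot be told apart in this spread.

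Among the Hsp70 and Hsp110 genes, 4 of 10 were above the range. Hspa8, the constitutive Hsc70, had 7.19, 7.33, 7.36 and 7.58 in mice 1 to 4 (7.37 ± 0.16, SD, n = 4), so mouse 4 was highest and mouse 1 lowest. Hspa9, the Hsp70 of the mitochondrial matrix, had 7.38, 7.52, 7.21 and 7.53, with mouse 3 lowest. Hspa4, a nucleotide exchange factor of the Hsp110 kind, averaged 6.80 ± 0.11 by its brightest probe set (SD, n = 4). The heat-inducible Hsp70 is encoded by the neighbouring genes Hspa1a and Hspa1b on chromosome 17. The Hspa1b probe set read 7.07, 6.89, 6.98 and 6.87, above the limit in every mouse, and that of Hspa1a read 5.49, 5.57, 5.46 and 5.72, below it in every mouse. Because these genes are near-identical copies, either probe set may read both, and which gene the RNA came from is uncertain. Their promoters show the same closeness, with 247 of the 250 bases before the start identical (RefSeq, GRCm38.p6).

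The stretches that hold the heat shock element in these promoters are shown because the 2 genes cannot be told apart by them, and Hsph1 because it had the widest range of the chaperones. Capitals mark the element, the inverted repeat GAANNTTC or TTCNNGAA to which heat shock factors bind.
Hspa1a, chr17:34972233-34972280, minus strand: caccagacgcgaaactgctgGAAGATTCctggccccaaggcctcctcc
Hspa1b, chr17:34959315-34959362, minus strand: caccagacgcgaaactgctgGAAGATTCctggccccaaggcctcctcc
Hsph1, chr5:149636342-149636389, minus strand: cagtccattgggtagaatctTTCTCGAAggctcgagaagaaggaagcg
Searched on both strands over 250 bases before each start, GAANNTTC or TTCNNGAA was found for 13 of the 65 chaperone genes in the promoter table, or 20%, and for 14.5% of its 27025 genes. The 13 take in both Hspa1a and Hspa1b, and both Hspd1 and Hspe1, which share a promoter. Both forms read the same on either strand, and adjoining matches overlap. Of the 13 genes, 6 were above the background range, against 21 of the other 52.

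Hsph1, the inducible Hsp110, had 6.05, 5.57, 6.42 and 5.81 in mice 1 to 4. Mouse 3 alone was above the limit, and the ratio of mouse 3 to mouse 2 was 1.8. Its SD of 0.36 was the largest of the chaperone probe sets (adjusted p = 0.493, limma), and since its mean of 5.96 lay under the limit, the size of that spread is uncertain. The other Hsp70 genes were low: Hspa14, a ribosome-associated Hsp70, had 3.41 ± 0.17, and Hspa1l, Hspa2 and Hspa4l, all best known from testis, averaged 4.76, 3.80 and 5.12.

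Hsp90 was represented by Hsp90aa1 alone, the stress-inducible cytosolic form. Its brighter probe set read 8.46, 9.06, 8.90 and 8.51 (8.73 ± 0.29, SD, n = 4). Mice 2 and 3 were therefore above mice 1 and 4, by a ratio of 1.52 between the highest and the lowest, and the variance was not called (adjusted p = 0.801, limma). A second Hsp90aa1 probe set read 2.84 ± 0.06. Of the cochaperones, St13, the Hsp70-interacting protein Hip, was above the range at 6.62 ± 0.11, and Stip1, the adaptor that joins Hsp70 to Hsp90, had 4.19 ± 0.15 and was not (SD, n = 4 each). Hsp90ab1, Ahsa1 and Ptges3 were not analysed here.

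Small heat shock proteins hold unfolded clients without using ATP, and 2 of 4 measured genes were above the range. Hspb8, which works with Bag3 in selective autophagy, had 7.15, 6.95, 7.2 and 7.26. Hspb2, a small heat shock protein of muscle, read 6.51, 6.84, 6.49 and 6.84 by its brighter probe set (6.67 ± 0.20, SD, n = 4), with mice 2 and 4 the higher. Its other probe set, under the limit in every mouse, did not repeat this order, at 4.35, 4.17, 4.22 and 4.26. Of 13 measured smooth muscle genes 11 were above the range, and these deviated on average by 0.34, -0.18, -0.04 and -0.13 in mice 1 to 4. Of 5 measured erythrocyte genes 1 was above it, the haemoglobin gene Hba-a1. Like the brighter Hspb2 probe set, Hba-a1 was higher in mice 2 and 4 (7.88, 8.51, 7.71 and 8.39 in mice 1 to 4). Under the limit, Hbb-b2 and Slc4a1 were higher there too, and Alas2 and Epb42 were not. Mice 1 and 3 lay on one side of mice 2 and 4 in 35.7% of all genes with a mean above the limit. The part of smooth muscle cells and erythrocytes in the Hspb2 values was not tested. Hspb1, or Hsp25, read 2.59, 2.46, 2.55 and 2.67, far under the limit in each mouse, by its 1 probe set. Hspb11, named as a small heat shock protein and known as a subunit of the ciliary transport machinery, averaged 5.14 ± 0.10.

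The chaperonin CCT is a double ring of 8 different subunits that folds actin and tubulin. All 8 were measured, and Cct3, Cct4, Cct5 and Cct7 were above the range while Tcp1, Cct2, Cct6a and Cct8 were not. By its brighter probe set Cct5 had 8.19, 8.58, 8.15 and 8.32 in mice 1 to 4, with mouse 2 highest and mouse 3 lowest. A second Cct5 probe set, also above the range, read 6.89, 6.87, 6.92 and 6.69, with mouse 3 highest. Cct7 had 7.72, 7.91, 8.04 and 7.76, and Cct4 had 6.96, 7.2, 7.07 and 6.83. In these subunits the highest mouse was mouse 2 or mouse 3, whereas the brightest Cct3 probe set (6.79, 6.77, 7.0 and 7.03) was highest in mouse 4. The other Cct3 probe sets were both highest in mouse 3. One read 6.77, 6.73, 6.85 and 6.81, and the other, at 6.11, 5.93, 6.19 and 6.01, passed the limit on 1 array only. Cct6a straddled the limit at 5.99 ± 0.17, above it on 2 arrays, and Tcp1, Cct2 and Cct8 averaged 5.61, 5.38 and 4.91 over the mice. Levels of different probe sets cannot be set against each other, so the subunits' relative amounts were not compared. Cct6b, the testis form of the sixth subunit, averaged 5.24 ± 0.18.

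Prefoldin was above the range in 1 of 4 genes. Pfdn6 had 7.36, 7.14, 7.16 and 7.27, while Pfdn2, Pfdn5 and Pfdn1 averaged 5.57, 4.73 and 2.23. The spread of all 4 was small, with SDs of 0.06 to 0.10. The prefoldin subunit Vbp1, which the symbol pattern does not take in, was also above the range.

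The mitochondrial chaperonin consists of Hspd1 (Hsp60), which forms the folding chamber, and Hspe1 (Hsp10), its lid. Hspd1 had 8.29, 8.22, 8.55 and 8.18, and Hspe1 had 6.17, 6.02, 6.2 and 5.91. In both, mouse 3 had the highest and mouse 4 the lowest value, and the 4 mice came in the same order, although neither was called (adjusted p = 0.993 for each, limma) and Hspe1 passed the limit in mouse 3 alone. Mice in this order were also seen for the cochaperone genes Dnaja1 and Stip1, picked after their values were seen. It was the order of 2 of 35 chaperone genes with a mean above the limit, or 5.71%, against 3.30% of all such genes. The dimmer probe set of Hspd1 had another order, at 6.62, 6.35, 6.62 and 6.54.

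Hspd1 and Hspe1 lie head to head on chromosome 1 and share a promoter, shown as its 30 bases around the heat shock element because the same DNA serves both genes. It holds 4 adjoining units of the element, in capitals, and each line is the reverse complement of the other (RefSeq, GRCm38.p6).
Hspe1, chr1:55088053-55088082, plus strand: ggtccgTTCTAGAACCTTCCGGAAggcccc
Hspd1, chr1:55088053-55088082, minus strand: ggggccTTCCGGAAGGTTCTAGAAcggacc
The longer element of 3 units, in which GAANNTTC and TTCNNGAA share 1 unit, was searched on both strands. It was found before 3 of 65 chaperone genes, or 4.62%, namely Hspd1, Hspe1 and Dnajb6, and before 0.514% of all 27025 genes in the table. The shared promoter of Hspd1 and Hspe1 is counted for both genes in the 4.62%. Dnajb6, a J-domain protein that suppresses aggregation, had 6.63, 6.89, 6.80 and 6.59 and so ranked the mice in another order than Hspd1.

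J-domain proteins were the largest family, with 10 of 27 genes above the range. Of those in the cytosol and nucleus, Dnaja1, a partner of Hsc70 that is itself heat inducible, had 7.28, 7.12, 7.31 and 7.06. Dnaja2 had 6.39 ± 0.12, Dnajc7, a cochaperone of both Hsp70 and Hsp90, had 7.07 ± 0.13, Dnajc8 had 7.89 ± 0.06 and Dnajc9, a histone chaperone, had 6.77 ± 0.06 (SD, n = 4 each). The classical heat-inducible Hsp40 gene, Dnajb1, was below the limit in every mouse at 4.58, 4.53, 4.81 and 4.90. So were Dnajb2, Dnajb4, Dnajb5, Dnajc2, Dnajc4, Dnajc5, Dnajc13, Dnajc17 and Dnajc21, whose brightest probe sets averaged 4.17 to 5.95. The testis members Dnajb3, Dnajb8 and Dnajb13, with the Hsp70 and CCT genes Hspa1l, Hspa2, Hspa4l and Cct6b, were grouped after their values were seen. Of these 7 genes 0 were above the range, with means of 3.43 to 6.05. A group made in this way cannot test whether testis members are low. Dnajb13 passed the limit in mouse 4, at 6.24.

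In mitochondria, Dnaja3, the J-domain partner of Hspa9, had 5.88 in mouse 1 against 6.24, 6.42 and 6.33 in mice 2 to 4. It was below the limit in mouse 1 alone, and its SD of 0.24 was not called (adjusted p = 0.922, limma). Dnajc11 and Dnajc15, both of mitochondrial membranes, averaged 5.64 and 4.79. Of the 7 mitochondrial genes 2 were above the range.

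The ER genes were above the range in 8 of 11 cases. Dnajc10, or ERdj5, a disulfide reductase of misfolded proteins, read 9.33, 9.70, 9.69 and 9.31, with mice 2 and 3 the higher. Dnajc3, the ER-lumen J-domain protein p58IPK, had 7.07, 7.31, 7.59 and 7.28, with mouse 3 highest and mouse 1 lowest. Another 2 Dnajc3 probe sets were above the range. One, at 6.56, 6.67, 7.05 and 6.87, also had mouse 3 highest and mouse 1 lowest, and the other, at 6.55, 6.35, 6.61 and 6.57, had mouse 3 highest and mouse 2 lowest. Dnajb11, a cofactor of the ER Hsp70 BiP, had 6.45, 6.46, 6.74 and 6.52 and was highest in mouse 3 as well.

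Dnajb9, or ERdj4, a repressor of the stress sensor IRE1, ran otherwise, at 7.49, 7.79, 6.96 and 7.30 in mice 1 to 4. Mouse 3 was here the lowest and mouse 2 the highest, a ratio of 1.78 between them (SD 0.35, adjusted p = 0.569, limma). A second Dnajb9 probe set, at 5.94, 6.38, 6.04 and 5.95, agreed on mouse 2 as highest but not on mouse 3 as lowest. Dnajc1 averaged 5.68 and was below the limit.

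The ER stress response element, CCAAT and CCACG with 9 bases between them, was searched on both strands of the same 250 bases. Of the 65 chaperone genes only Dnajc3 held it, 1.54%, against 0.130% of all genes in the table. It is shown, with the element in capitals, as the only match among the chaperone genes (RefSeq, GRCm38.p6).
Dnajc3, chr14:118937807-118937865, plus strand: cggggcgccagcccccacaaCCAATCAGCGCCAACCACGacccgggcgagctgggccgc

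FK506-binding proteins and cyclophilins turn peptide bonds at proline, a slow step of folding. Of 8 FK506-binding proteins 5 were above the range. Fkbp11, an ER member typical of secretory cells, read 7.39, 6.79, 7.50 and 6.86 in mice 1 to 4. Mice 1 and 3 thus stood above mice 2 and 4, with a ratio of 1.63 between the highest and the lowest, and its SD of 0.36 was the largest among the chaperone genes with a mean above the limit (adjusted p = 0.499, limma). Plasma cells also make Fkbp11. Of 6 measured genes of B and plasma cells 2 were above the range, Ighm and Igha, and both were called variable between the mice (adjusted p = 0.00733 and 0.0242, limma). Jchain, not above the range, was called too, at 5.86, 6.55, 6.74 and 5.20 in mice 1 to 4 (adjusted p = 0.0332, limma). The brightest probe sets of Cd79a, Cd79b and Ms4a1 were not called. Ighm and Igha deviated on average by -0.01, 0.78, 0.55 and -1.32 in mice 1 to 4. They and Fkbp11 were both high in mouse 3 and low in mouse 4, while in mouse 2 they were high and Fkbp11 low. Their part in the Fkbp11 values was not tested.

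The other ER members Fkbp2 (8.95 ± 0.10) and Fkbp9 (6.78 ± 0.15) were above the range and Fkbp7 (3.65 ± 0.11) was not (SD, n = 4 each). Fkbp1a, the FKBP12 that binds calcium release channels, had 7.95, 7.97, 7.94 and 7.82. Fkbp8, an inhibitor of apoptosis on mitochondria, had 8.53, 8.54, 8.27 and 8.56, so 3 mice lay together and mouse 3 below them. Fkbp1b passed the limit on 2 arrays at a mean of 6.22, and the nuclear Fkbp3 averaged 5.10. Of the 6 cyclophilins Ppib, which assists collagen folding in the ER, was above the range. It had 8.26, 8.28, 8.27 and 8.20, and its SD of 0.04 was among the smallest of the chaperones. Ppif, of the mitochondrial permeability pore, averaged 5.74, and Ppic, Ppid, Ppie and Ppig averaged 3.13 to 4.01. The cytosolic Ppia was not analysed here.

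BAG proteins release the nucleotide from Hsp70, and 3 of 4 genes were above the range. Bag1, which links Hsp70 to the proteasome, had 6.80, 7.03, 6.55 and 6.67. Bag2, an inhibitor of the ubiquitin ligase Stub1, had 7.72 ± 0.11 and Bag6, which escorts membrane proteins that missed the ER, had 6.89 ± 0.13. Bag3, a partner of Hspb8 in autophagy, had 6.16, 5.80, 6.05 and 5.83 and passed the limit on 0 arrays. Of the heat shock factors only Hsf2 was analysed here, at 3.30 ± 0.06 (SD, n = 4 each).

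**Figure D2:**
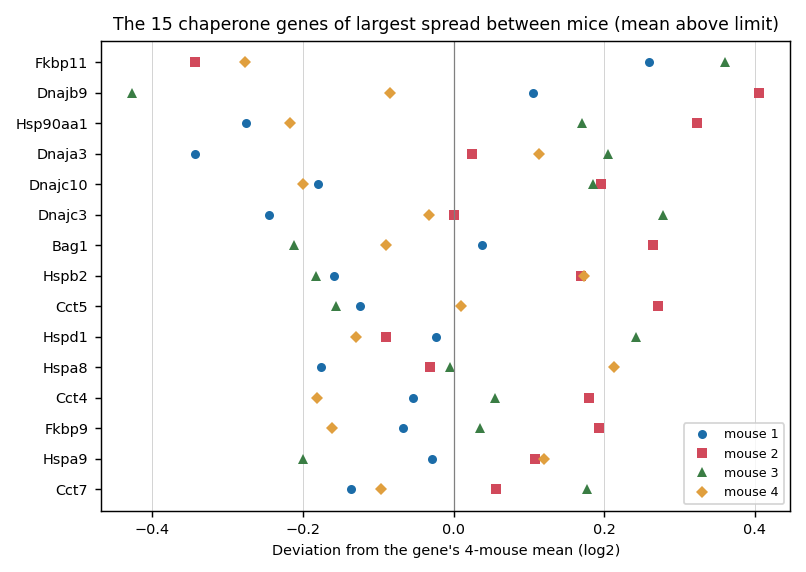
Deviation of each mouse from the gene's own 4-mouse mean, in log2 units on the x axis, for the 15 chaperone genes of largest SD among those with a mean above the limit, largest at the top. The mouse at the extremes changes from gene to gene: Fkbp11 is highest in mouse 3, whereas Dnajb9 is lowest there.

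For the 35 chaperone genes with a mean above the mean limit, each mouse's departure from a gene's own mean, averaged over genes, was -0.05, 0.04, 0.04 and -0.02 in mice 1 to 4 (SD 0.05 over the mice). The 35 genes were highest in mouse 2 in 13 cases (37.1%, against 30.4% of all such genes) and in mouse 3 in 11 (31.4%, against 26.7%). They were highest in mouse 1 in 4 cases (11.4%, against 23.2%) and in mouse 4 in 7 (20%, against 19.7%). They were lowest in mouse 1 in 11 cases (31.4%, against 24%), in mouse 2 in 9 (25.7%, against 30.4%), in mouse 3 in 6 (17.1%, against 23.4%) and in mouse 4 in 9 (25.7%, against 22.1%). Mice 1 and 3 lay on one side of mice 2 and 4 in 12 of the 35 genes, or 34.3%, against 35.7% of all, and of these 12 genes 6 were higher in mice 1 and 3. Among probe sets with a mean above the limit, 5 of 43 chaperone probe sets, or 11.6%, ranged over more than 0.5, as did 11.6% of all.

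By family the small deviations did not run alike. J-domain genes (11 with a mean above the limit) deviated on average by -0.09, 0.06, 0.07 and -0.03, and the 4 CCT genes by -0.11, 0.10, 0.05 and -0.03. Both averages were lowest in mouse 1, but only 5 of the 11 J-domain genes and 1 of the 4 CCT genes were lowest there. The 4 Hsp70 genes averaged 0.00, -0.03, -0.02 and 0.05, with 2 genes highest in mouse 1 and 2 in mouse 4. Of genes known to be raised by heat shock factor 1, 6 of 15 chaperones were above the range. These 6 averaged -0.04, -0.02, 0.10 and -0.04, and 2 of the 6 were highest in mouse 3. The inducible Hspa1b was highest in mouse 1 and Hspa8 in mouse 4.

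Some other lists deviated more in mouse 3. ER chaperones and unfolded protein response genes outside the symbol pattern (13 genes with a mean above the limit) deviated on average by -0.07, -0.06, 0.18 and -0.04. Of these 13, 7 were highest in mouse 3. Hypoxia and oxidative stress genes (9) deviated on average by -0.08, -0.08, 0.20 and -0.04. Only 4 of the 9 were highest in mouse 3, among them Ddit4 (7.33, 7.09, 8.56 and 7.51), Mt1 and Mt2. Hmox1, Gclc, Gclm and Sqstm1 lay below their own means there. Macrophage and dendritic cell genes (8) had -0.11, 0.13, 0.30 and -0.32, with 8 of 8 highest in mouse 3 and 7 of 8 lowest in mouse 4. These 8 were Cd74, H2-Ab1, H2-Aa, H2-Eb1, C1qa, C1qb, C1qc and Ctss. The rest of the list, with means under the limit, was divided. Adgre1 and Csf1r were highest in mouse 3, Cd68 and Tyrobp in mouse 2, and Lyz2 and Fcer1g in mouse 1. Of the whole macrophage list of 14 genes, 6 were above the range. As a sign of RNA integrity, beta-actin control probe sets read higher at the 3' than at the 5' end by 1.08, 0.82, 1.02 and 0.98, and for Gapdh the same difference was -0.12, -0.15, -0.15 and -0.13. Mouse 3 lay among the others in the beta-actin control and was marginally the lowest in that of Gapdh. The part of other cells and of RNA quality in the chaperone values was not tested.

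**Figure D3:**
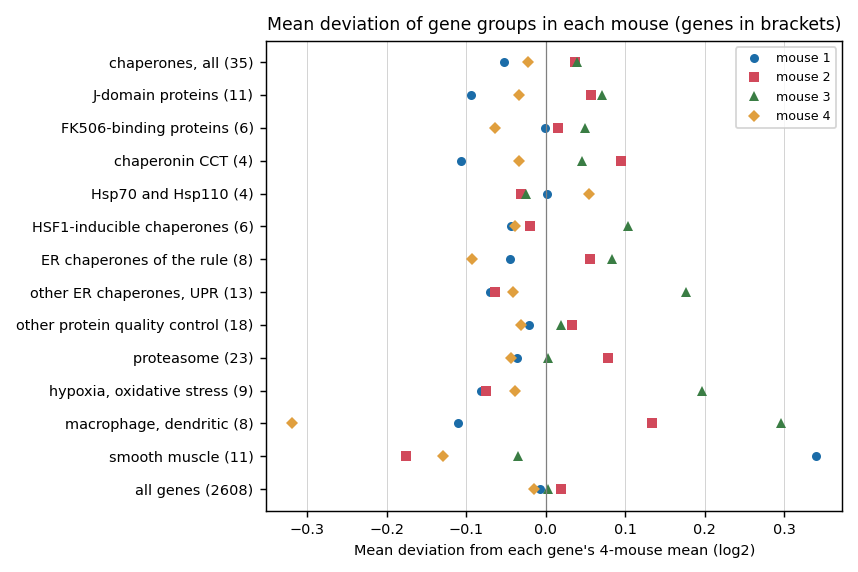
Mean deviation of gene groups, each gene taken against its own mean over the mice, in log2 units on the x axis, with 1 symbol per mouse and the number of genes with a mean above the limit in brackets. The chaperones as a whole stay within -0.05 and 0.04, while smooth muscle genes reach 0.34 in mouse 1 and macrophage genes 0.30 in mouse 3 and -0.32 in mouse 4.

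Genes of protein quality control outside the symbol pattern were above the range in 18 of 35 cases, and 0 of their 52 probe sets were called variable by limma. Among them the ubiquitin ligase Stub1, the kinase-specific Hsp90 cochaperone Cdc37 and the Hsp90-binding Fkbp4 and Fkbp5 were above it. Fkbp4, a cochaperone of the androgen receptor complex, had 8.93, 9.02, 9.17 and 9.04, and Fkbp5, a gene raised by androgen, had 7.95, 8.14, 8.11 and 8.0. The ER Hsp70 Hspa5, left out by the rule, had 9.75, 9.74, 9.70 and 9.72, a narrower spread than any chaperone probe set taken in, of which the lowest SD was 0.03. The lens and muscle chaperone Cryab, a neighbour of Hspb2, had 5.54, 5.92, 5.24 and 5.61 and was not above the range. Like the brighter but not the dimmer Hspb2 probe set, Cryab was higher in mice 2 and 4 than in mice 1 and 3. Proteasome genes were above the range in 22 of 30 cases, and their 23 genes with a mean above the limit deviated by -0.04, 0.08, 0.00 and -0.04.

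Several chaperone genes were read by more than 1 probe set. Of 21 such genes, 11 had probe sets on both sides of the background range, 3 had all above it and 7 had none. Hsp90aa1, Dnajc3, Bag2, Hspb8 and Hspa4 each had a probe set above the limit in every mouse and another that passed it in none. Of 7 genes with several probe sets whose mean exceeded the limit, 4 (Bag2, Bag6, Dnajc3 and Dnajc8) had the same mouse highest in each of them, and Cct3, Cct5 and Hspd1 did not.

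**Figure D4:**
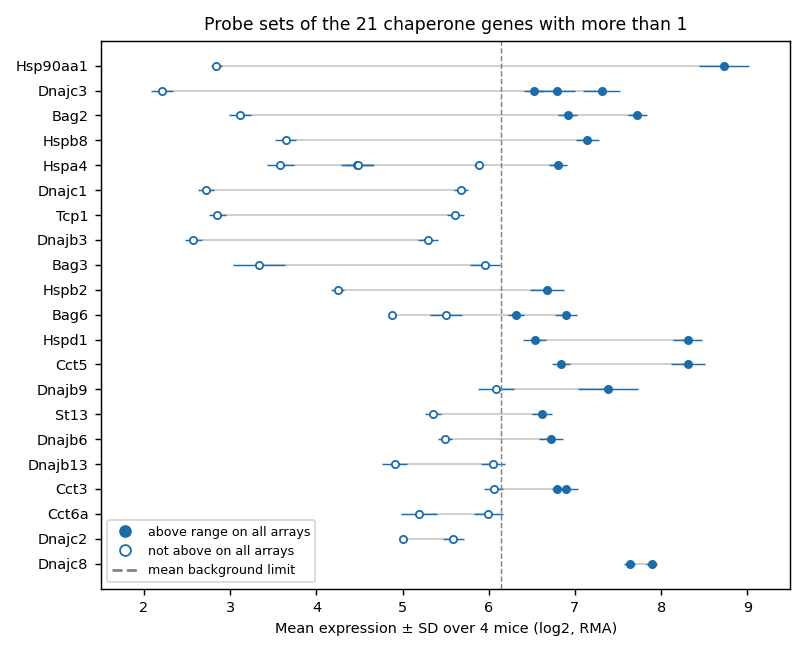
Mean expression in log2 units on the x axis, with bars of 1 SD over 4 mice, for every probe set of the 21 chaperone genes that have more than 1. Filled points were above the background range on all arrays, and 11 of the 21 genes have both filled and open points.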

How the data were processed

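Each probe set has 1 log2 value per array in the deposited table, for which the submitters' processing notes name RMA as the authors' method. Its version, and the set of arrays normalized at once, are not stated in these sources. Values from 1.47 to 13.2 show the log2 scale. RMA compresses small signals and evens out whole-array shifts. The table held 12488 probe sets, and 66 Affymetrix controls were kept out of tests. The platform annotation gave a single gene for 10833 probe sets, several for 396 and none for 1193. All 108 chaperone probe sets matched a RefSeq table (GRCm38.p6) by gene ID, used for names and neighbours.

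Mouse numbers 1 to 4 follow accession order and are names only. The members and lists were chosen with earlier results of these data known. The probe set of highest mean stood for its gene. The variance test was an upper-tail F test with 3 residual and 8.06 prior degrees of freedom, from limma's robust prior with a mean-signal trend. In data simulated from this same prior, it called 17.9% of probe sets with a 3-fold SD. It called 59.7% of those with a 6-fold and 89.6% of those with a 10-fold SD. Such data cannot show how well the prior describes real arrays. The p-values describe these 4 samples. Named genes were those of a fixed list of 49 (42 measured), the 15 chaperones of largest SD and 5 with probe sets far apart. Other members are named by family, after their values were seen. Alternatives were other scalings, prior fits, filters, background limits, ways to combine probe sets, and leaving out each mouse. R 4.3.3, limma 3.58.1, Python 3.11.15 and matplotlib 3.10.9 were used.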

Additional observations from a re-analysis of the deposited data

Results flagged for a closer look

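In 2 of the 47 chaperone genes named by rule, 1 mouse lay far from the other 3, by Dixon's ratio of the gap to the whole range, which exceeded its critical value for 4 samples. Chance marks about 1 in 20 such groups. For Fkbp8 the ratio was 0.870, since mouse 3 read 8.27 and the others 8.53, 8.54 and 8.56. For Cct8 it was 0.859, since mouse 4 read 4.63 and the others 4.97, 5.02 and 5.02, all below the background limit. Neither variance was called (adjusted p = 0.993 for each, limma).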

How the results depend on the processing

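With the background limit at the 75th percentile, or at each array's median, 57 chaperone genes were above the range. With the 95th percentile 21 were. The count was 33 to 34 when a mouse was left out, 33 with either rescaling of the arrays and 24 when a gene's probe sets were averaged. Without averaging, a gene counted as above the range when any of its probe sets was. The share of all genes was not worked out for averaged probe sets. The 24 can therefore not be set against the 28.4% of all genes. Chaperone probe sets called variable numbered 0 under each alternative run, with a lowest adjusted p of 0.339 (limma, without mouse 1). None of the 47 named genes was called in any of 423 combinations of gene and alternative. Calls were rare on the whole array too, at 15 to 44 of 12422 probe sets. They were 17 of 9840 with probe sets averaged, 1 of 6211 above the median signal and 0 of 3218 above the mean limit. With so few calls, the 0 among chaperones cannot tell the alternatives apart. The SD of the mean deviation was 0.0456, between 0.0352 and 0.0527 without 1 mouse and between 0.0215 and 0.0552 under the other alternatives. No paired analysis was possible because all arrays belong to 1 group. Signal over background limits what can be said of the 45 genes not above the range, and 4 arrays limit what can be called.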
